A study of Mus musculus with 246 samples.

Results

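The genes described here are 32 markers of meningeal and perivascular fibroblasts, taken by name as a measure of how much meninges each brain punch carried. The rule names the genes and uses no measured value, but the list was drawn up with earlier results of these data known. They are 32 of the 56691 genes in the table, each was found once by its symbol, and all 32 passed the filter on low counts in every comparison. RNA came from punches of 6 brain regions in each of 41 adult male mice of the outbred CD1 strain. PFC, the prefrontal punch, was taken from medial cortex, and ACC, the cingulate one, from its anterior part. DMT was dorsomedial thalamus, Nacc the accumbens, HC the ventral part of the hippocampus, and BLA the basolateral nucleus of the amygdala. Ctrl_Vehicle mice were raised in standard nests by dams given an empty phospholipid gel. ELA_Vehicle mice had the same gel and early life adversity, in which the dam has little bedding and nesting material from the second to the ninth postnatal day. ELA_SAFit2 mice had the same adversity, but the gel carried SAFit2, an inhibitor of the stress co-chaperone FKBP51. The NoInteraction set held 7 mice per condition. The SocialInteraction set met an unfamiliar mouse for 10 min before tissue collection and held 6 Ctrl_Vehicle, 7 ELA_Vehicle and 7 ELA_SAFit2 mice. Punches from both hemispheres were pooled, and the labels do not say which mice shared a litter.

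Fibroblasts of the leptomeninges, the thin inner coverings of the brain, build a collagen-rich matrix and carry transporters that move organic ions, amino acids and sulfate between cerebrospinal fluid and tissue. Related fibroblasts follow larger vessels into the brain in the perivascular space, while the brain tissue itself holds almost none. Their transcripts in a punch can come from its pial edge or from larger vessels, and some of these genes are also used by neurons, glia or the choroid plexus, the epithelium that makes cerebrospinal fluid.

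Total counts lay between 20804219 and 43351397 per library, with a median of 28844763. By genes whose level differs between individual mice, all libraries of 5 regions matched the other punches of their own mouse. In the Nacc 29 of 41 did, and 12 matched another mouse. The Nacc counts of region calls, mean level and largest median condition difference are therefore given with and without these 12. Unless stated, other Nacc values rest on all 41 libraries, among them single fold changes, correlations between genes and dispersions. In bulk tissue fewer fibroblasts and less RNA per fibroblast cannot be told apart. The list was set beside other genes that mark the same cells. A separate list of 30 further meningeal genes was correlated with the mean of the 32 members at r = 0.99 in the PFC, 0.98 in the ACC and Nacc, 0.97 in the BLA and 0.94 in the DMT and HC (41 mice each, group means removed, descriptive). That list too was chosen with earlier results of these data known. In the BLA choroid plexus markers gave r = 0.91 with the members, so the value there does not single out fibroblasts.

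Transcripts of the list were present in every punch, but at very different amounts between mice. The mean member level, the mean over the 32 genes of log2(CPM + 0.5), was highest in the HC (2.75 ± 0.24, SD, n = 41), followed by ACC (2.50 ± 0.46), PFC (2.48 ± 0.63), Nacc (2.45 ± 0.58) and BLA (2.27 ± 0.34), and lowest in the DMT (1.95 ± 0.25). CPM are counts scaled to library size with edgeR's TMM factors. PFC, ACC and Nacc differed by far less than the SD between mice. The mean takes in members that did not follow the others between mice. Col6a1 had medians of 172 CPM in the PFC and 2.83 CPM in the DMT. Its correlation with the other members had a median of -0.274 over the regions. Col1a1 had a higher median in the DMT (7.78 CPM) than in the PFC (4.52 CPM). The order of mean levels is therefore not an order of fibroblast RNA alone. The highest PFC library lay at 4.24 (mouse 41) and the lowest at 1.45 (mouse 89), a 6.91-fold range on the linear scale. The same range was 5.67-fold in the Nacc, 3.98-fold in the ACC, 2.41-fold in the DMT, 2.28-fold in the BLA and 2.21-fold in the HC. Without the 12 mismatched libraries the Nacc mean was 2.51 ± 0.61 (n = 29).

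**Figure D1:**
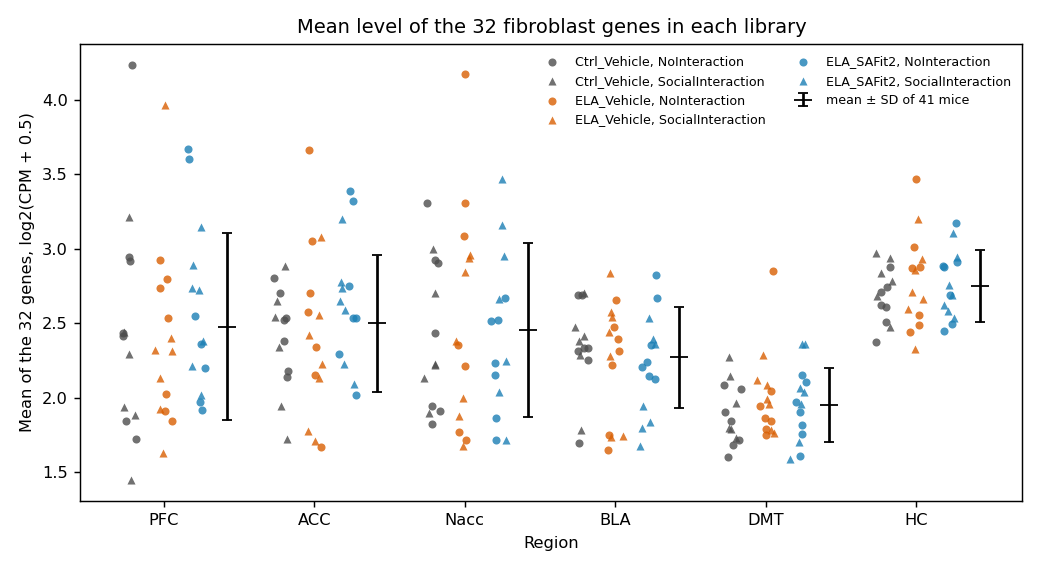
Mean over the 32 genes of log2(CPM + 0.5) in each library, by region; colour gives the condition, the symbol the set, and black bars the mean ± SD of 41 mice. PFC and Nacc spread most (SD 0.63 and 0.58) and HC and DMT least (0.24 and 0.25), with the conditions overlapping in every region.

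Part of this spread was shared between punches of the same mouse for some pairs of regions. After removal of group means, the mean member level of the PFC was correlated with that of the ACC at r = 0.56 (rho = 0.55, n = 41), and ACC with Nacc at r = 0.43 (0.48 in the 29 mice with matching Nacc libraries). PFC and BLA gave r = 0.43. With the DMT, r was -0.11 for the PFC, 0.01 for the ACC, 0.04 for the BLA and 0.36 for the Nacc (rho = 0.16). With the HC, no region passed r = 0.03, and Nacc and HC gave r = -0.21 (-0.31 in the 29 matching mice). The points of a pair share the mouse, and these correlations are descriptive. For the median member, 38.4% of the variance over all libraries lay between regions, 15.6% between mice and 43.8% in neither, against 61.4%, 9.6% and 26.4% for the median of the 17365 genes measured. These shares take mice by their labels, with the 12 mismatched Nacc libraries included. Col6a1 (96.8% between regions), Col6a2 (91.4%) and Cemip (89.9%) stood at one end, and Foxd1 (9.9%) and Slc13a4 (15.4%) at the other.

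How evenly the genes varied can be put as the biological coefficient of variation within groups, the replicate spread that edgeR estimates per gene. In the PFC it ran from 0.115 for Cemip to 1.49 for Slc47a1, against a median of 0.0969 over all genes tested, and in the Nacc from 0.196 for Lama1 to 1.20 for Osr1, against 0.107. Slc47a1 stood at the 99.4th percentile of all genes in the PFC and at the 99.3rd in the ACC, Nacc and BLA. In the DMT Foxc1 varied least among the members (0.112, against 0.0868 for the median gene).

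To ask how much of each fibroblast gene a punch held, each region was tested against the mean of the 5 others with edgeR's quasi-likelihood test. A gene was called at an adjusted p under 0.05 and an absolute log2 fold change of at least 1. HC punches had 6 members higher (5.31% of all genes tested were called higher) and 4 lower (5.74%). PFC punches had 4 higher (3.35%) and 0 lower (4.08%), and ACC punches 3 higher (3.47%) and 0 lower (4.51%). For the Nacc the counts were 4 higher (4.57%) and 3 lower (4.82%), and 4 and 2 without the mismatched libraries. BLA punches had 4 higher (6.65%) and 7 lower (1.84%), and DMT punches 1 higher (8.8%) and 10 lower (9.6%). The members' median log2 fold change was 0.50 in the HC, 0.17 in the ACC and Nacc, 0.12 in the PFC, -0.37 in the BLA and -0.44 in the DMT, while the median over all genes stayed within 0.03 of 0. The counts at 0, in the PFC and ACC, come with 6 and 10 members lower at an adjusted p under 0.05 without the fold minimum. The libraries of a mouse are not independent, and blocking on mouse number left 2 members higher in the PFC, where Cdh1 and Slc22a6 dropped under the fold minimum.

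**Figure D2:**
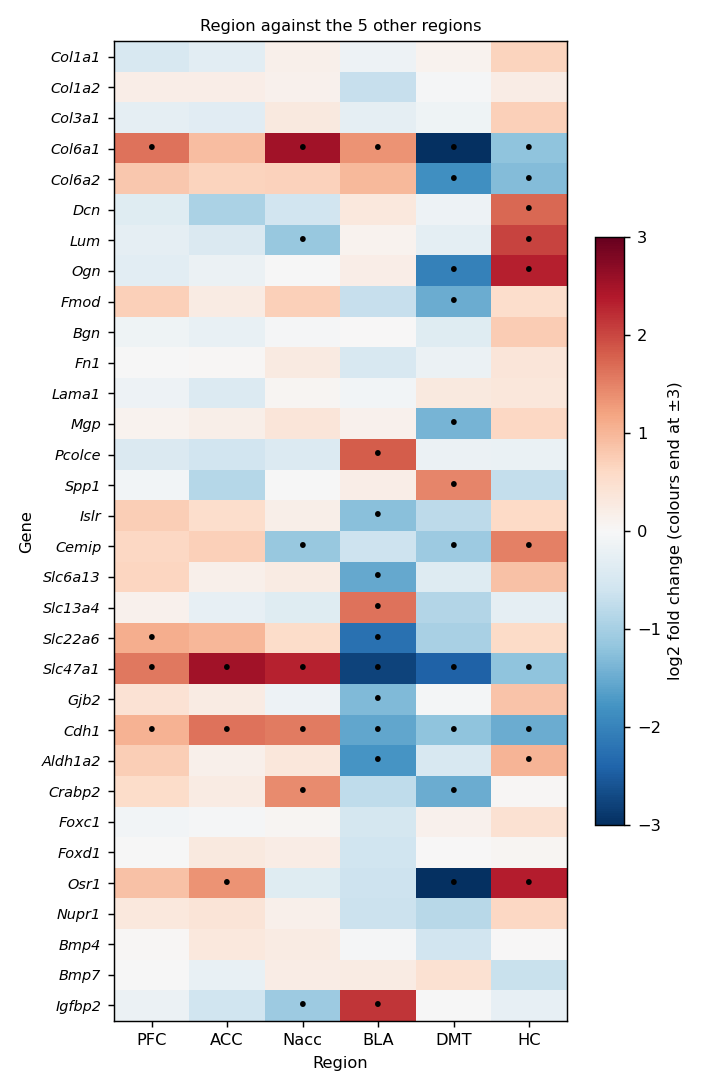
log2 fold change of each of the 32 genes (rows, ordered by role) in each region against the mean of the 5 others, from edgeR; dots mark genes past the adjusted p of 0.05 and a log2 fold change of 1. Col6a1 in the DMT reached -5.21 and is drawn at the end of the scale, and BLA and DMT hold most of the lower calls.

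The fibrillar collagens of the list, Col1a1, Col1a2 and Col3a1, which form the tensile fibers of connective tissue, passed the fold minimum in no region. Col1a1 had its highest median in the HC (11.1 CPM, range 7.05 to 21.1) and its lowest in the PFC (4.52 CPM, range 2.05 to 20.6). Col1a2 had the smallest ratio of highest to lowest median among the 32 members, with medians between 7.50 CPM in the BLA and 11.7 CPM in the HC, and PFC libraries from 4.47 to 40.4 CPM. Col3a1 had medians of 5.76 CPM in the HC and 2.40 CPM in the PFC. For all 3 genes the ranges of these regions overlapped.

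Col6a1 and Col6a2, chains of the beaded-filament collagen VI, behaved unlike the rest. Col6a1 had a median of 261 CPM in the Nacc (range 87.7 to 491), 172 CPM in the PFC (62.4 to 292), 140 CPM in the BLA (98.4 to 177), 109 CPM in the ACC (47.5 to 166), 31.2 CPM in the HC (19.7 to 51.0) and 2.83 CPM in the DMT (1.29 to 8.78). The DMT range lay below those of all other regions, and the HC range overlapped only that of the ACC. Every neighbouring pair in this order differed by edgeR (adjusted p between 4.77e-90 for HC against DMT and 0.00492 for PFC against BLA). Against the 5 others Col6a1 was higher in the Nacc by 2.53 (SE 0.054, adjusted p = 1.52e-118), in the PFC by 1.63 (SE 0.057, adjusted p = 4.05e-77) and in the BLA by 1.35 (SE 0.058, adjusted p = 1.48e-61) on the log2 scale. It was lower in the DMT (log2 fold change -5.21, SE 0.097, adjusted p = 3.21e-133) and in the HC (-1.22, SE 0.070, adjusted p = 6.79e-43). Without the mismatched libraries these calls held. Col6a2 was lower in the DMT (-1.85, SE 0.056, adjusted p = 3.28e-89), where its median was 6.70 CPM, and in the HC (-1.31, SE 0.054, adjusted p = 5.42e-65), with a median of 9.96 CPM, against 35.5 CPM in the BLA.

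Small proteoglycans bind and space collagen fibrils, and 3 of the 5 on the list were higher in the HC. Ogn (osteoglycin) had a median of 14.2 CPM there (range 5.48 to 24.4), against 0.877 CPM in the DMT (range 0.357 to 4.92), ranges that did not overlap. Its log2 fold change was 2.34 in the HC (SE 0.16, adjusted p = 9.79e-35) and -2.03 in the DMT (SE 0.23, adjusted p = 2.18e-16). Lum (lumican) had a median of 5.76 CPM in the HC and 0.785 CPM in the Nacc, with log2 fold changes of 2.03 (SE 0.10, adjusted p = 8.68e-50) and -1.14 (SE 0.14, adjusted p = 1.37e-14). Its HC range, 3.99 to 13.2 CPM, lay wholly above its Nacc range of 0.259 to 2.98 CPM. Dcn (decorin) was higher in the HC by 1.72 (SE 0.097, adjusted p = 7.70e-45), where libraries ran from 9.56 to 73.0 CPM around a median of 25.4. Fmod (fibromodulin) was lower in the DMT (-1.50, SE 0.18, adjusted p = 3.90e-14), and Bgn (biglycan) passed the fold minimum in no region, with medians between 8.96 CPM in the PFC and 17.2 CPM in the HC.

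Among other matrix and secreted proteins, Fn1 (fibronectin) and Lama1 (a laminin chain of basement membranes) passed the fold minimum nowhere. Fn1 medians lay between 34.1 CPM in the BLA and 55.9 CPM in the HC, and Lama1 medians between 3.50 and 5.63 CPM. Cemip, a hyaluronan-degrading protein, was higher in the HC (log2 fold change 1.52, SE 0.044, adjusted p = 1.54e-93) and lower in the Nacc (-1.15, SE 0.054, adjusted p = 1.90e-55) and DMT (-1.09, SE 0.054, adjusted p = 1.48e-52). HC libraries ran from 34.5 to 79.3 CPM for Cemip and lay above all Nacc libraries (8.63 to 26.1 CPM). Pcolce, which enhances procollagen cleavage, was higher in the BLA by 1.81 (SE 0.12, adjusted p = 2.84e-37), but BLA libraries spanned 1.74 to 29.1 CPM. Islr was lower in the BLA (-1.26, SE 0.099, adjusted p = 1.33e-27), and Mgp (matrix Gla protein, an inhibitor of calcification) in the DMT (-1.41, SE 0.14, adjusted p = 6.28e-19). Spp1 (osteopontin) was the single member higher in the DMT, by 1.46 (SE 0.12, adjusted p = 1.18e-26), with a median of 7.43 CPM there against 1.54 CPM in the PFC.

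Of the 6 transporter and junction genes, 5 were lower in the BLA and 1 was higher. Slc22a6, an organic anion transporter, had medians of 3.69 CPM in the ACC and 3.38 CPM in the PFC against 0.647 CPM in the BLA. It was higher in the PFC by 1.10 (SE 0.15, adjusted p = 7.12e-12) and lower in the BLA (-2.25, SE 0.20, adjusted p = 6.39e-23). Slc6a13, a GABA and taurine transporter, and Gjb2, a gap junction protein of leptomeningeal cells, were also lower in the BLA (-1.54, SE 0.14, adjusted p = 4.06e-22, and -1.33, SE 0.13, adjusted p = 8.66e-20). Slc13a4, a sulfate transporter used by both leptomeninges and choroid plexus, went the other way in the BLA, higher by 1.63 (SE 0.18, adjusted p = 1.80e-16). Its BLA libraries ran from 0.346 to 48.3 CPM around a median of 24.1, so that the lowest BLA punch lay below every PFC library.

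Slc47a1, which exports organic cations, and Cdh1, which encodes E-cadherin of arachnoid barrier cells, varied widely between mice and were missing from many libraries. Slc47a1 was higher in the ACC by 2.52 (SE 0.25, adjusted p = 4.60e-20), in the Nacc by 2.32 (SE 0.25, adjusted p = 1.49e-17) and in the PFC by 1.59 (SE 0.26, adjusted p = 1.46e-08). It was lower in the BLA (-2.79, SE 0.41, adjusted p = 1.68e-10), DMT (-2.43, SE 0.39, adjusted p = 3.48e-09) and HC (-1.21, SE 0.36, adjusted p = 0.00121). No read was counted for Slc47a1 in 13 of 41 BLA libraries and 10 HC libraries, and the highest Nacc library held 20.8 CPM. Cdh1 was higher in the ACC (1.64, SE 0.25, adjusted p = 4.95e-10), Nacc (1.56, SE 0.24, adjusted p = 2.09e-09) and PFC (1.05, SE 0.26, adjusted p = 0.000111) and lower in the BLA, HC and DMT (log2 fold changes -1.56, -1.48 and -1.20). With mouse number as a block, its DMT value was -0.93, under the fold minimum. Among SocialInteraction libraries alone, the HC calls of both genes were lost (adjusted p = 0.0577 for Cdh1 and 0.189 for Slc47a1).

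Of the retinoid genes, Aldh1a2, the enzyme with which meninges make retinoic acid, was lower in the BLA (log2 fold change -1.76, SE 0.18, adjusted p = 4.84e-19) and just past the fold minimum in the HC (1.02, SE 0.14, adjusted p = 8.40e-12). Its BLA libraries ran from 0.728 to 2.70 CPM and its HC libraries from 2.28 to 17.9 CPM. Crabp2, which carries retinoic acid to the nucleus, was higher in the Nacc by 1.41 (SE 0.13, adjusted p = 6.84e-22) and lower in the DMT (-1.50, SE 0.17, adjusted p = 9.79e-16). Of the transcription regulators, Foxc1 and Foxd1, forkhead factors of meningeal development, and Nupr1, a stress-response protein, passed the fold minimum nowhere. Foxc1 medians lay between 2.27 CPM in the BLA and 3.84 CPM in the HC. Osr1, a zinc finger factor, was higher in the HC (2.36, SE 0.15, adjusted p = 1.39e-38) and ACC (1.35, SE 0.16, adjusted p = 8.31e-15). It was lower in the DMT (-3.61, SE 0.25, adjusted p = 5.59e-33), where 10 of 41 libraries had no read of it.

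Of the signals, Bmp4 and Bmp7, ligands of the bone morphogenetic protein family, passed the fold minimum in no region. Bmp7 medians lay between 6.53 CPM in the HC and 12.4 CPM in the DMT. Igfbp2, which binds insulin-like growth factors, was higher in the BLA by 2.14 (SE 0.11, adjusted p = 6.42e-52) and lower in the Nacc (-1.09, SE 0.14, adjusted p = 9.76e-14). Without the mismatched libraries its Nacc value was -0.998, just under the fold minimum. Compared between genes as median CPM per kilobase of exon, Col6a1 was the most abundant member in the PFC, ACC and Nacc (39.3, 24.9 and 59.6) and Igfbp2 in the BLA, DMT and HC (51.8, 12.5 and 11.9). Cdh1 and Foxd1 were among the last 4 members on this scale in all 6 regions.

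Whether the genes of the list rose and fell together between mice was described by the correlation of each with the mean of the 31 others over the 41 mice of a region, on the log2 scale with group means removed. The points share depth and scaling, and no test was made. In the PFC the median member had r = 0.929 and 27 of 32 passed 0.8, in the ACC 0.914 and 23, and in the Nacc 0.896 and 26. The median pair of members was correlated at 0.837, 0.744 and 0.812. In the DMT and HC the median member had r = 0.718 and 0.702, and in the BLA 0.600, where 12 members stayed under 0.3 and 27.6% of the 496 gene pairs were below 0. Col1a2 (lowest r 0.883), Slc13a4 (0.881) and Pcolce (0.808) passed 0.8 in all 6 regions.

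**Figure D3:**
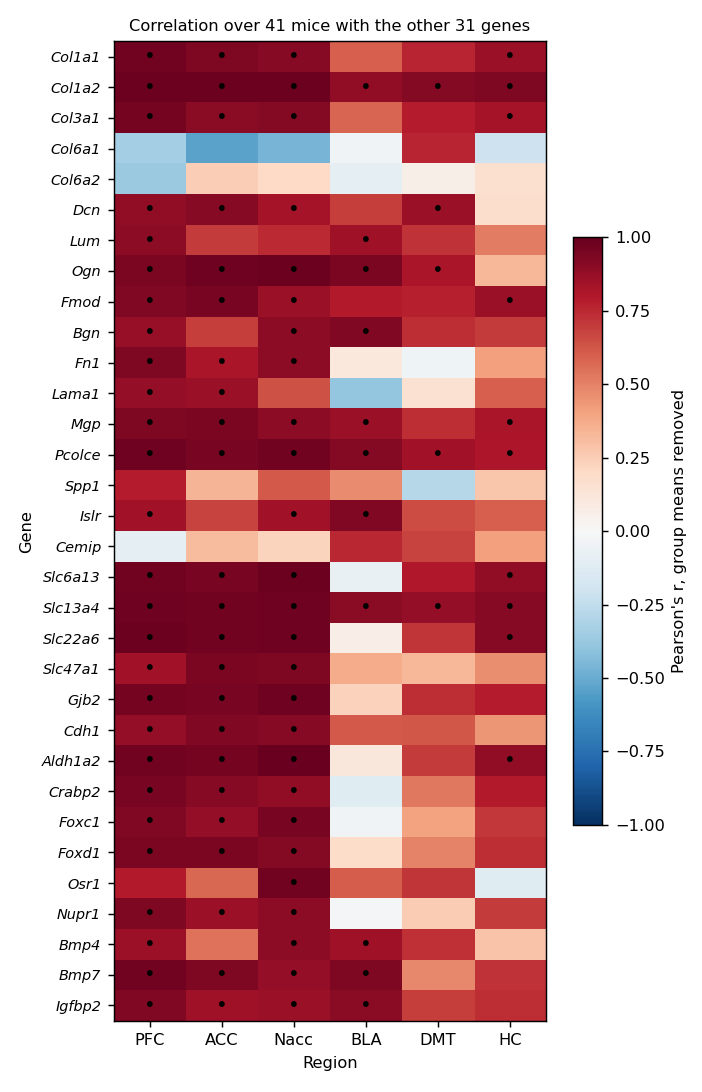
Pearson's r of each gene (rows) with the mean of the other 31 over 41 mice, by region, with group means removed; dots mark r over 0.8. Dots mark 27 genes in the PFC, 23 in the ACC and 26 in the Nacc, but 11 in the BLA, where 12 genes from Lama1 (-0.387) to Gjb2 (0.231) lie under 0.3.

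Col6a1 ran against the others in the PFC (r = -0.343), ACC (-0.537) and Nacc (-0.467) and followed them only in the DMT (0.763), the region where its level was lowest. Col6a2 reached at most 0.248, Cemip ranged from -0.101 in the PFC to 0.750 in the BLA, and Spp1 from -0.289 in the DMT to 0.784 in the PFC. In the HC 6 members lay under 0.3, namely Col6a1 (-0.206), Osr1 (-0.120), Col6a2 (0.158), Dcn (0.172), Spp1 (0.276) and Bmp4 (0.288). Of these, Osr1 and Dcn were among the 6 members called higher in that region. The others called higher there were Ogn (0.335), Cemip (0.407), Lum (0.511) and Aldh1a2 (0.888). Of the 6, only Aldh1a2 thus passed 0.8 in the HC. Outside the list, the genes closest to the mean of the members by median r over the regions were Igf2 (0.952), an imprinted growth factor, Slc6a20a (0.951), a proline transporter, and Aebp1 (0.942), a collagen-binding protein. Next came Colec12 (0.913), Wfikkn2 (0.910), Serping1 (0.909), Bmp6 (0.903), Alx4 (0.891), Ifitm2 (0.884) and Ranbp3l (0.881).

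Promoters are shown for 2 members that passed 0.8 in all 6 regions, Col1a2 and Slc13a4, and for 2 that passed it in none, Col6a1 and Cemip, so that the sequences can be compared. The windows run from before to just after the start given by RefSeq (GRCm38.p6), and 21 of the 32 members had one. Capitals mark matches to any of 3 motifs on either strand. The forkhead core reads GTAAACA. The CCAAT box carries its letters as its name. The third motif, a TATA box, reads TATAAA.
Col1a2, chr6:4505368-4505667, plus strand: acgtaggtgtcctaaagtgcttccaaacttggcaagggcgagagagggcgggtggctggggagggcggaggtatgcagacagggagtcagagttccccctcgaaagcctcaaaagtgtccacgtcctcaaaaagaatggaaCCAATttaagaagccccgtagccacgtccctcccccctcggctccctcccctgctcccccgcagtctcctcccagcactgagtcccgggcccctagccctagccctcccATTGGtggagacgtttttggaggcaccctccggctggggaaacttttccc
Slc13a4, chr6:35308077-35308376, minus strand: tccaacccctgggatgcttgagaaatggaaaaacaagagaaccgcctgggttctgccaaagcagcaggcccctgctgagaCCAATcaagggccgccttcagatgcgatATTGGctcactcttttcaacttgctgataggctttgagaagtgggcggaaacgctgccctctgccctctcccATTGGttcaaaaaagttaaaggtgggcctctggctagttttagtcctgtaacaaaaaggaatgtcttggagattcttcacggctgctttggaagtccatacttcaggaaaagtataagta
Col6a1, chr10:76725995-76726294, minus strand: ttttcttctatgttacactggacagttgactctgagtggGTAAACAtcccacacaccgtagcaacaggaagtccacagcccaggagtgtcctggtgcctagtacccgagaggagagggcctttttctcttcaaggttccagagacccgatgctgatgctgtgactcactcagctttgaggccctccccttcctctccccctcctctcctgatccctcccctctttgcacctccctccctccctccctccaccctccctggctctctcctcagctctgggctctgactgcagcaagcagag
Cemip, chr7:84086456-84086755, minus strand: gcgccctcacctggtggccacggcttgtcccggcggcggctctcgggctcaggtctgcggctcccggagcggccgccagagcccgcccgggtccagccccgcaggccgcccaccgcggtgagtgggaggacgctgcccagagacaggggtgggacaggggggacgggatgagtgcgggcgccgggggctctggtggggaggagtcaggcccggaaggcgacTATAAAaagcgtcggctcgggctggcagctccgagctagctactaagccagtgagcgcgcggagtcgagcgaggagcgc

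CCAAT lay in the windows of Col1a2, Slc13a4 and 6 other members, 8 of 21 in all, against 37.9% of 27025 promoters of the same length. The 4 windows shown do not stand for the rest. Pcolce also passed 0.8 in all 6 regions, and its window lacked CCAAT. Spp1 and Col6a2 passed it in none, and CCAAT lay in the window of Spp1 but not of Col6a2. TATAAA lay in 4 of 21, Cemip, Col3a1, Ogn and Spp1, against 14.2%. GTAAACA lay in 1, Col6a1, against 3.5%, and GGGCGG, not capitalised here, in 13 of 21 against 35.9%. The Slc13a4 window was 48.7% G and C, that of Col6a1 57.3% and that of Cemip 73.7%. These matches describe the letters of the windows and were not tied to any level by a test.

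In the BLA, transcripts of the choroid plexus moved with part of the list. The 11 choroid plexus markers summed to between 36.0 and 6198 CPM over the 41 BLA libraries (median 2890), and Ttr (transthyretin) reached 5071 CPM. The same sum reached 1555 CPM in the DMT (median 59.8) and 311.5 CPM in the HC (median 29.8), and at most 64.9 CPM in the Nacc, 19.1 in the ACC and 18.5 in the PFC. None of the 11 was at 0 in all libraries of a region. The mean choroid plexus level was correlated with the mean member level at r = 0.91 in the BLA, 0.72 in the PFC, 0.70 in the DMT, 0.49 in the Nacc, 0.24 in the ACC and 0.12 in the HC. In the BLA 16 of 32 members had r over 0.5 with it and 12 were below 0. All 11 markers were higher in the BLA than elsewhere (median log2 fold change 4.88), and 9 in the DMT.

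Slc13a4 followed the choroid plexus list almost exactly in the BLA (r = 1.0), with Igfbp2 (0.98), Pcolce (0.97), Ogn (0.96), Bmp7 (0.92) and Islr (0.89). In mouse 89, with the least choroid plexus RNA, BLA levels were 0.702 CPM for Slc13a4, 8.34 for Igfbp2 and 0.527 for Ogn. In mouse 15, with the most, they were 48.3, 203 and 9.24 CPM. Slc6a13 (r = -0.22), Slc22a6 (-0.13), Aldh1a2 (-0.12) and Crabp2 (-0.30) did not follow, and were 2.15, 0.659, 0.790 and 1.01 CPM in mouse 89 and 1.48, 1.31, 1.34 and 0.403 CPM in mouse 15. With the endothelial list the same genes gave r = 0.64, 0.55, 0.57 and 0.74. Of the 4 members called higher in the BLA, 3 (Slc13a4, Igfbp2 and Pcolce) thus followed the choroid plexus list and Col6a1 (r = -0.12) did not. The part of choroid plexus RNA in the BLA calls was not tested.

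**Figure D4:**
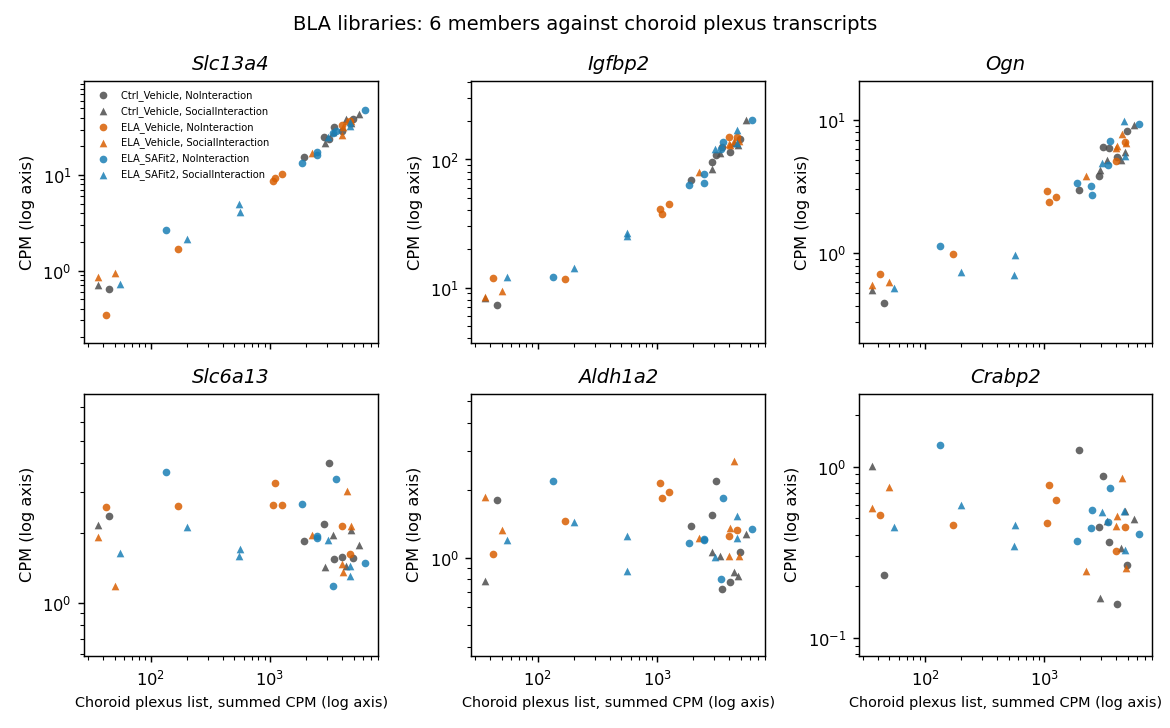
CPM of 6 members in the 41 BLA libraries against the summed CPM of 11 choroid plexus markers, both on log axes; colour gives the condition and the symbol the set. Slc13a4, Igfbp2 and Ogn climb with choroid plexus RNA (r = 1.0, 0.98 and 0.96), and Slc6a13, Aldh1a2 and Crabp2 do not (-0.22, -0.12 and -0.30).

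Markers of other cells moved with the list in some regions and not in others. Markers of border macrophages (Mrc1, Cd163, Lyve1, F13a1 and Pf4), which live beside these fibroblasts, were correlated with the mean member level at r = 0.96 in the PFC, 0.91 in the ACC and 0.84 in the Nacc, but at 0.09 in the BLA. Their r was 0.51 in the DMT and 0.65 in the HC. Endothelial markers gave 0.83 (PFC), 0.65 (ACC), 0.48 (Nacc), -0.31 (BLA), -0.07 (DMT) and 0.41 (HC). Mural markers gave 0.81, 0.68, 0.59, -0.15, 0.24 and 0.76 in the same order of regions. Both vascular lists were thus negative in the BLA and highest in the PFC. Astrocyte markers gave 0.75 (PFC), 0.34 (ACC), 0.87 (Nacc), 0.72 (BLA), 0.89 (DMT) and 0.33 (HC), above the border macrophages in the Nacc, BLA and DMT. Ependymal markers gave -0.04, -0.53, 0.21, 0.92, 0.62 and -0.24 in that order of regions. Oligodendrocyte markers ran against the members in the PFC (-0.60), ACC (-0.71) and Nacc (-0.22), with them in the DMT (0.60), and were near 0 in the BLA (0.10) and HC (-0.01). In the PFC, markers of the olfactory bulb, which neighbours the prefrontal punch, were correlated with the members at 0.72. They summed to 156 CPM in mouse 41 and 279 CPM in mouse 93, the 2 highest PFC libraries for the members, against a PFC median of 15.9. The highest sum was 345 CPM in mouse 79, with a mean member level of 3.15, but mouse 65, with 219 CPM, had a mean member level of 2.44. The part of neighbouring tissue in the PFC levels was not tested. No list had a marker at 0 in every library of a region.

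Between regions the 30 further meningeal genes did not repeat the members' counts everywhere. In the BLA 3 were higher (6.65% of all genes) and 8 lower (1.84%), with a median log2 fold change of -0.41. DMT punches had 5 higher (8.8%) and 4 lower (9.6%), against 1 and 10 of the members, with a median of -0.10. In the ACC 4 were higher (3.47%) and 3 lower (4.51%), with a median of -0.16 against 0.17 for the members. The counts were 5 higher (3.35%) and 1 lower (4.08%) for the PFC, 1 (4.57%) and 5 (4.82%) for the Nacc, and 4 (5.31%) and 2 (5.74%) for the HC, with medians of 0.05, -0.03 and 0.18. In the BLA, Igf2 was higher by 2.19 (SE 0.13, adjusted p = 1.95e-42) and Col8a1 by 3.24 (SE 0.095, adjusted p = 1.30e-90), while Slc6a12 (-2.47), Slc22a2 (-2.19) and Ranbp3l (-1.62) were lower. BLA levels of Igf2 were 23.6 CPM in mouse 89, with the least choroid plexus RNA, and 510 CPM in mouse 15, with the most. The part of choroid plexus RNA in the Igf2 call was not tested. Of 17 collagen-processing genes measured out of 18, 0 were higher and 1 lower in the PFC and in the ACC, 1 and 0 in the Nacc and HC, 2 and 0 in the BLA, and 1 and 2 in the DMT, to be read against the same shares of all genes. Their median log2 fold change lay between -0.28 in the ACC and 0.15 in the BLA. The matrix protein Sparc was higher in the DMT (1.90, SE 0.042, adjusted p = 4.65e-117), and Loxl1, a lysyl oxidase, was higher in the HC (1.87, SE 0.078, adjusted p = 2.80e-64) and lower in the DMT (-1.39, SE 0.10, adjusted p = 6.00e-31). Adamts3, a procollagen protease, was higher in the Nacc (2.51, SE 0.050, adjusted p = 3.88e-125) and lower in the DMT (-2.20, SE 0.073, adjusted p = 2.84e-82), as Col6a1 was.

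Whether early life adversity or SAFit2 changed the fibroblast genes was tested in each region and set with edgeR's quasi-likelihood test, in 36 comparisons of 3 conditions. None of the 32 members was called at an adjusted p under 0.05 in any of them. The background was as low. Of all genes tested, 0.00632% were called in the PFC for ELA_Vehicle against Ctrl_Vehicle and for ELA_SAFit2 against ELA_Vehicle in the NoInteraction set, 0.0063% in the Nacc for ELA_Vehicle against Ctrl_Vehicle in that set, and 0% in the 33 other comparisons. At an unadjusted p under 0.05, 48 of 1152 member tests passed (4.35% of all genes pooled), 21 of them higher and 27 lower. DESeq2 called 0, with 56 at an unadjusted p under 0.05. The 3 comparisons within a set share samples, so their values are not independent. Members that vary together are not independent of each other either. The smallest member p in the NoInteraction comparison of ELA_Vehicle with Ctrl_Vehicle was that of Islr in the PFC (-0.54, SE 0.30, adjusted p = 0.971), Lum in the ACC (0.54, SE 0.28, adjusted p = 0.951), Col6a2 in the BLA (0.14, SE 0.10, adjusted p = 0.981), Slc47a1 in the Nacc (1.72, SE 0.89, adjusted p = 0.613), Lum in the DMT (0.71, SE 0.28, adjusted p = 0.9997) and Nupr1 in the HC (0.41, SE 0.17, adjusted p = 0.974).

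The median member moved most in the Nacc of the NoInteraction set. Between ELA_SAFit2 and ELA_Vehicle its log2 fold change was -0.81, and 17 of 32 members were lower at an unadjusted p under 0.05 (6.18% of all genes), with 0 past the adjusted threshold and Col1a1 at the smallest p (-0.91, SE 0.31, adjusted p = 0.302). The median pair of members was correlated at r = 0.812 in the Nacc, so these 17 are not separate results. The mean member level of the 7 ELA_Vehicle libraries had a median of 2.35 (range 1.72 to 4.18), and that of the 7 ELA_SAFit2 libraries 2.23 (range 1.72 to 2.67). The groups overlapped. The value rested on the ELA_Vehicle library at 4.18. Without it the median was -0.37 and 0 members passed the unadjusted threshold, whereas leaving out any other of the 14 libraries gave -0.65 to -0.96 with 5 to 26 members. Without the 12 mismatched libraries the median was -1.05 with 21 members, 0 of them past the adjusted threshold. In the same comparison the border macrophage list had a median of -0.53, the further meningeal genes -0.58 and the endothelial list -0.01, while all 5 striatal markers were higher at an unadjusted p under 0.05 (median 0.43). The part of punch position in these values was not tested. In the SocialInteraction set the members' median was 0.25.

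**Figure D5:**
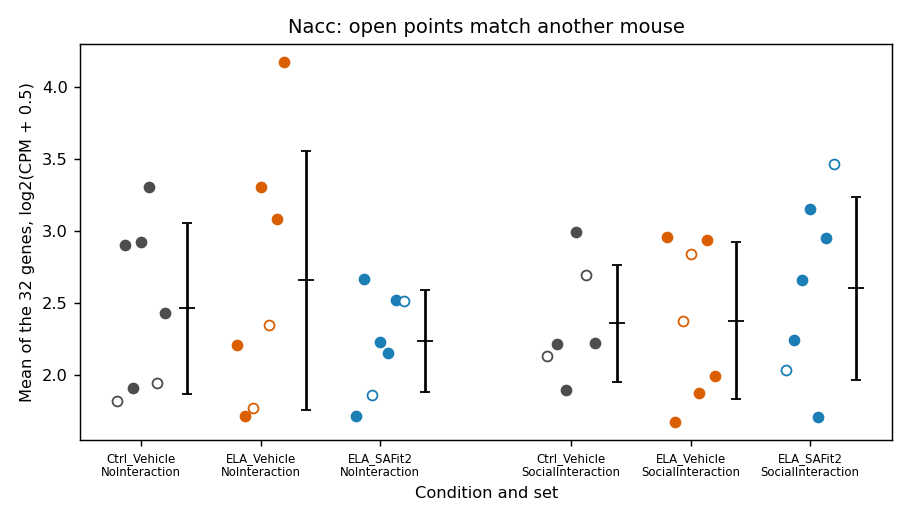
Mean over the 32 genes of log2(CPM + 0.5) in the 41 Nacc libraries by condition and set, with mean ± SD in black; open points are the 12 libraries that matched another mouse. ELA_SAFit2 of the NoInteraction set has the narrowest spread (2.24 ± 0.36), and 1 ELA_Vehicle library stands at 4.18.

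Whether a condition difference itself changed with social interaction was tested by 18 interaction terms, and 0 members were called by edgeR. At an unadjusted p under 0.05, 26 of 576 tests passed (3.94% of all genes pooled). Of the 26, 15 lay in the Nacc term of ELA_SAFit2 against ELA_Vehicle. DESeq2 also called 0, with 30 at an unadjusted p under 0.05. Over all genes, 0.0315% were called in the Nacc and 0.0379% in the DMT for ELA_SAFit2 against ELA_Vehicle, and 0% in the 16 other terms. In the Nacc the members' median interaction of this comparison was 1.01. It was 0.53 without that ELA_Vehicle library, with 2 members past the unadjusted threshold, and 1.22 without the 12 mismatched ones. Lum had the smallest p with all Nacc libraries (1.94, SE 0.61, adjusted p = 0.516).

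Social interaction itself, averaged over the conditions, left nearly all members uncalled. In the ACC 1 of 32 was called, Col6a2, lower after interaction by edgeR (log2 fold change -0.21, SE 0.058, adjusted p = 0.0337), where 4.13% of all genes were called. Without interaction Col6a2 had medians of 30.7 CPM in Ctrl_Vehicle (range 26.5 to 35.2), 29.6 in ELA_Vehicle (20.7 to 39.1) and 36.9 in ELA_SAFit2 (30.9 to 41.1). After interaction they were 26.6 (22.3 to 30.7), 27.6 (22.4 to 35.9) and 29.0 (23.9 to 33.1), so that the sets overlapped in every condition. The call was marginal, with adjusted p up to 0.0558 when single ACC libraries were left out. The median member was -0.22 in the ACC and -0.25 in the PFC, against -0.003 to 0.002 over all genes in the 6 regions.

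In the other regions 0 members were called by edgeR, against 7.39% of all genes in the PFC, 1.49% in the BLA, 1.55% in the DMT, 1.22% in the HC and 0% in the Nacc. Over the 6 regions 10 of 192 member tests passed an unadjusted p under 0.05, against 13.2% of all genes pooled. In the PFC Col6a2 had the smallest p (-0.22, SE 0.077, adjusted p = 0.0711), and in the BLA Slc6a13 (-0.40, SE 0.13, adjusted p = 0.113). DESeq2 called Col6a2 in the ACC (adjusted p = 0.0151) and PFC (0.0402) and Lum in the ACC (-0.53, adjusted p = 0.0315). All 3 differences were lower after interaction. Whether Col6a2 differed more in one region than another was not tested.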

How the data were processed

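Poly-A RNA of tissue punches was sequenced from a stranded library kit. The deposited table holds estimated counts per gene, made by the authors with salmon, as its name gives, and not scaled for depth or gene length. The submitters' processing notes also name STAR, DESeq2, GRCm39 and mm39, and versions are not given in the sources used here. Of the values 12.12% were not whole, and all were rounded. Gene types came from GENCODE M21 (52073 IDs) or RefSeq symbols (978 IDs), and 3640 IDs without a type were left out. Tests covered protein-coding genes seen in 6 or more libraries whose counts summed to 100 or more (15722 to 15992 per region, 17381 over all regions).

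edgeR 4.0.16 in R 4.3.3 (TMM, quasi-likelihood test, Benjamini-Hochberg adjustment over all genes tested) gave all fold changes. Region was fitted over 246 libraries with the 6 groups of condition and set as a term, and conditions were fitted per region with the 6 groups. SE is the absolute log2 fold change over the root of F. DESeq2 1.42.0, other size factors, filters and subsets of libraries were alternatives. Levels used log2(CPM + 0.5). In simulated PFC counts for ELA_Vehicle against Ctrl_Vehicle of the NoInteraction set, edgeR recovered 92% of 200 genes changed by a log2 fold of 1 among 15812, with 10 false calls. The changed genes were drawn from all genes with a mean over 1 CPM, each at its own dispersion. The members varied more than the median gene in the PFC (0.115 for Cemip to 1.49 for Slc47a1, against 0.0969). Recovery of the members themselves was not simulated, so the 92% does not apply to them. Python 3.11.15, pandas 2.3.3 and Matplotlib 3.10.9 did the rest.

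Mouse numbers in the labels are shared by the regions. By 60 genes chosen per region for their spread between individuals, every library outside the Nacc matched its own mouse, so the numbers pair the regions, except for 12 Nacc libraries. All 32 members are named, with full statistics for those called and the smallest p where none was. Genes outside them come from fixed lists and the 10 with the highest median correlation with the members. All gene lists, like the members, were chosen with earlier results of these data known. Col6a2 and Lum in DESeq2's calls and single mice were named after their values were seen. Promoter letters come from RefSeq. The labels do not say which mice shared a litter. For tests within a region, p-values therefore measure the spread between mice and not between litters. Except with the replicate block, the fit of region had no term for the mouse. Its p-values thus measure the spread between libraries, and the libraries of a mouse are not independent.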

Additional observations from a re-analysis of the deposited data

Results flagged for a closer look

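In 42 groups of 6 or 7 mice looked at (36 for the mean member level and 6 for Col6a2 in the ACC), 2 libraries stood farther from the rest of their group than Dixon's 95% limit allows. Chance flags about 1 group in 20. The highest DMT library of the ELA_Vehicle NoInteraction group had a mean member level of 2.85, against 1.75 to 2.05 in the 6 other mice. It also held 1207 CPM of choroid plexus markers, against a DMT median of 59.8, and the most oligodendrocyte markers of the region (7746 CPM), and the Nacc library of the same mouse was the highest of its region at 4.18. The PFC library of mouse 93 (ELA_Vehicle, SocialInteraction) had a mean member level of 3.96, against 1.63 to 2.40 in the 6 others. It held 279 CPM of olfactory bulb markers, against a PFC median of 15.9. Both libraries matched their own mouse. The part of neighbouring tissue in these values was not tested.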

How the results depend on the processing

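Every one of the 46 calls of a member in a region kept its sign under all 7 refits of the regions, and 46 of 46 held with DESeq2's size factors and without the filter on low counts, 45 with NoInteraction libraries only, 44 without the mismatched Nacc libraries, 43 with the replicate block and 42 with SocialInteraction libraries only. With the replicate block of mouse number, 2 members were higher in the PFC in place of 4, also without the mismatched libraries (added after the data were seen), and no other count moved by over 1.5 times. The 3 calls lost under the block were those of Cdh1 (0.73) and Slc22a6 (0.92) in the PFC and of Cdh1 in the DMT (-0.93). SocialInteraction libraries alone gave 2 higher in the PFC, 1 lower in the ACC and 2 lower in the HC. Without a fold minimum, higher and lower counts were 15 and 6 (PFC), 12 and 10 (ACC), 16 and 5 (Nacc), 7 and 17 (BLA), 3 and 20 (DMT) and, higher alone, 20 (HC). A pseudocount of 2 CPM raised the mean member level to 2.98 (ACC), 2.88 (BLA), 2.59 (DMT) and 3.19 (HC), with the same order of highest and lowest. DESeq2 called 3 members after social interaction in place of 1, and leaving out single ACC libraries gave 0 to 2. Col6a2 lost its call there in 9 of 41 such fits (mice 25, 31, 37, 43, 53, 57, 59, 71 and 97, adjusted p 0.0518 to 0.0558), with log2 fold changes from -0.23 to -0.18. Lum gained one in 7 (mice 1, 5, 7, 37, 61, 89 and 93). Condition comparisons and interaction terms stayed at 0 called members under every alternative run. Genes near or under 1 CPM in some regions, such as Cdh1, Slc47a1 and Osr1, rest on few reads per library there. Medians were 0.0366 CPM for Slc47a1 in the BLA, 0.0373 CPM for Cdh1 in the HC and 0.0419 CPM for Osr1 in the DMT.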
